A study of Mus musculus with 5 samples.

Results

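The 8 genes Trem2, Spp1, Gpnmb, Apoe, Fabp5, Lpl, Cd9, and Lgals3 mark lipid-associated macrophages, a state of tissue and tumor macrophages that take up and process lipid. They were taken by name, 8 of the 33696 genes measured, and described by cell class and treatment in MC38 tumors, a transplantable mouse colon carcinoma model. In this state, the surface receptor TREM2 binds lipids, lipoproteins, and cell debris, and signals through the adaptor TYROBP, which recruits the kinase SYK. The genes it is linked to load, carry, and store lipid and equip the lysosome, and in tumors such macrophages are mostly described as restraining T cells. Of the products, TREM2 is largely limited to the myeloid lineage, whereas APOE, LPL, FABP5, and CD9 also serve many other cell types.

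Male C57BL/6J mice of 8 to 10 weeks carried MC38 tumors under the skin and received, on days 3, 6, and 9, isotype control antibodies or CPI, that is antibodies to CTLA4 and PD-1. Vehicle or 20 mg/kg of the JAK1 inhibitor ABT-317 followed on day 12, and tumors were taken on day 15, with the 4 groups isotype, isotype + ABT-317, CPI, and CPI + ABT-317. Sorted CD45+ and CD45– cells were mixed 1:1, marked with hashtag antibodies, and run in 2 scRNA-Seq reactions, each of which held all groups. The sources differ on whether days count from implantation or from enrollment at a set tumor size. A hashtag names a treatment within a reaction and no single mouse, so the unit of comparison is the sum of all cells of a treatment in a reaction (n = 2), and p values measure only the spread between these sums, which may be technical.

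Of 37774 and 27582 barcodes in reactions 1 and 2, 15219 and 9682 passed the filters, which include an upper limit of 2500 genes. The limit does not fall evenly: 87.5% and 87.6% of CPI barcodes lay under it, but only 31.1% to 57.6% of the barcodes of the other groups. Clustering without the 8 genes gave 20 clusters, of which 9 could be named, as 6 classes, and 6819 cells stayed unnamed. Barcodes with several hashtags, the visible doublets (2746 and 926 of those passing), were left out of all levels, and no doublet caller was run. Macrophage-like cells were 4511 and 4059 for isotype, 368 and 239 for isotype + ABT-317, 330 and 222 for CPI, and 432 and 378 for CPI + ABT-317, and their sums held 510030 to 15559902 UMIs, the molecular tags by which copies of 1 transcript are counted once. The fibroblast-, T-, and endothelial-like classes were made up mostly of CPI cells (1453, 822, and 86 cells), so class and treatment cannot be told apart for them. The reactions shared 1416 barcode sequences, where independent draws from the kit's barcode list would give 1413.14.

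The members lie apart in the genome (GRCm38). Trem2 (ENSMUSG00000023992) is on chromosome 17 (48346401-48354147, plus strand), Spp1 (ENSMUSG00000029304) on chromosome 5 (104435118-104441050, plus), Gpnmb (ENSMUSG00000029816) on chromosome 6 (49036546-49070929, plus), and Cd9 (ENSMUSG00000030342) also on chromosome 6 (125460266-125494791, minus). Apoe (ENSMUSG00000002985) is on chromosome 7 (19696109-19699188, minus), Lpl (ENSMUSG00000015568) on chromosome 8 (68880491-68907448, plus), Fabp5 (ENSMUSG00000027533) on chromosome 3 (10012548-10016607, plus), and Lgals3 (ENSMUSG00000050335) on chromosome 14 (47367751-47386160, plus). RefSeq start sites on GRCm38.p6 gave 9 windows, each the 250 bases before a start, for 6 members. The windows were searched on both strands for CACGTG, the E-box read by MITF and TFE factors, for TGANTCA, a loose form of the AP-1 element that takes any middle base, and for GAGGAAGT, a form of the PU.1 element. These letters stand in 6.02%, 6.75%, and 2.44% of 32851 such windows genome-wide. Trem2, Spp1, and Gpnmb are shown as the receptor gene, the osteopontin gene, and the member with the largest log2 fold change with CPI, at chr17:48346151-48346400, chr5:104434861-104435110, and chr6:49036268-49036517, all on the plus strand, with any match in capitals.
Trem2: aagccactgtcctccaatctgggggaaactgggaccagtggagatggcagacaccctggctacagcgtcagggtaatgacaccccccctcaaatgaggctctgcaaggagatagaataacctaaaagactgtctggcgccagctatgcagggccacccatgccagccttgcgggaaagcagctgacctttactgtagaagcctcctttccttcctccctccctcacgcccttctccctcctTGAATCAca
Spp1: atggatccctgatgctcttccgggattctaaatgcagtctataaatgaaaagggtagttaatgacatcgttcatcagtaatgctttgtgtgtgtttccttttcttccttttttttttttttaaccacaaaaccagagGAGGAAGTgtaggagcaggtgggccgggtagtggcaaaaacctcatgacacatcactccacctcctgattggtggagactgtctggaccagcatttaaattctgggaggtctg
Gpnmb: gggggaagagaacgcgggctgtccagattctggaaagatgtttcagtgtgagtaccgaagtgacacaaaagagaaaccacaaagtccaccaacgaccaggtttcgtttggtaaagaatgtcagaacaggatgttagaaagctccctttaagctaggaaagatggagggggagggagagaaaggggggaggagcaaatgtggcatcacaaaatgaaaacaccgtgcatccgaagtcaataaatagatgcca
The Trem2 window holds 1 match to the loose form TGANTCA, which reads TGAATCA, the first Spp1 window 1 match to GAGGAAGT, and the Gpnmb window none of the 3 motifs. The windows of Apoe, Cd9, and Lgals3 also hold none. A match in letters is not a site, and the absence of these letters says nothing of any factor outside the window.

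Among the 6 named classes, the members did not form 1 pattern. Trem2, Apoe, and Lgals3, which encodes the sugar-binding lectin galectin-3, were highest in macrophage-like cells. Spp1, which encodes the secreted phosphoprotein osteopontin, and Cd9, which encodes a membrane tetraspanin, were highest in granulocyte-like cells. Gpnmb, a lysosomal and surface glycoprotein gene, and Lpl, which encodes the lipase that frees fatty acids from lipoproteins, were highest in fibroblast-like cells, and Fabp5, an intracellular fatty acid carrier gene, in endothelial-like cells. So 3 of 8 members had their highest class level in macrophage-like cells, and the label of the list held by level for these 3. With 2 other ways of naming or cutting clusters, in which the Lyz1-led cells described below are monocyte-like, the count was 1 of 8. Without the upper limit on genes per cell it was 4 of 8, as Spp1 was then highest in macrophage-like cells (706 CPM) and Cd9 in endothelial-like ones, but no cluster was named granulocyte-like in that setting. In cells thinned to 1000 UMIs it was 2 of 8, Trem2 and Apoe. Levels are given as CPM, the UMIs of a gene in every 1000000 UMIs of the summed class, and classes were described without a test because they come from clusters of the same cells.

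Trem2 stood at 493 and 632 CPM in macrophage-like cells of reactions 1 and 2. The other named classes held 0 to 33.6 CPM, from at most 48 UMIs per class and reaction, so the gap was wider than any difference between reactions. Apoe, which encodes an apolipoprotein that helps carry cholesterol out of cells, stood at 9765 and 11934 CPM in macrophage-like cells against 557 and 307 CPM in T-like cells, which are not known to make it. Lgals3 averaged 2517 ± 384 CPM (SD, n = 2) in macrophage-like, 1526 ± 495 in granulocyte-like, and 1010 ± 78.7 in DC-like cells. The reactions of the first 2 classes did not overlap (lowest 2245, highest 1876 CPM), and the fibroblast-like level was 219 ± 17.3 CPM. After each cell was thinned to 1000 UMIs, which left 34 granulocyte-like cells, that order turned and the reactions overlapped, with 1586 and 4400 CPM in granulocyte-like and 2062 and 2680 CPM in macrophage-like cells.

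Spp1 reached 1546 and 1568 CPM in the 134 granulocyte-like cells, against 652 and 812 CPM in macrophage-like cells and 41.2 ± 26.6 CPM in DC-like cells. Cd9 gave 616 and 1138 CPM in granulocyte-like, 470 and 584 CPM in endothelial-like, and 229 and 263 CPM in macrophage-like cells. The first 2 of these classes differed by less than the SD of the first, 369 CPM, and macrophage-, DC-, and fibroblast-like cells (246 ± 24.0, 249 ± 16.1, and 201 ± 16.1 CPM) lay close together. Fabp5 was at 691 and 921 CPM in endothelial-like cells and at 361 ± 15.7 CPM in DC-like cells, above the 262 and 233 CPM of macrophage-like cells. An unnamed cluster, left out of the ranking of classes, overlapped the endothelial-like level with 681 and 862 CPM of Fabp5.

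Lpl and Gpnmb were several times higher in fibroblast-like than in macrophage-like cells. Lpl stood at 169 and 193 CPM in fibroblast-like cells and at 10.6 and 10.7 CPM in macrophage-like cells, and no endothelial-like cell held an Lpl UMI. Gpnmb averaged 100.4 ± 0.262 CPM in fibroblast-like and 23.1 ± 0.875 CPM in macrophage-like cells. These means are those of mostly isotype macrophages, and among CPI cells alone the order of Gpnmb was the reverse: 210.5 CPM (95% exact Poisson interval 185 to 238) in 552 macrophage-like cells against 103 CPM (94.9 to 112) in 1453 fibroblast-like cells, with both reactions summed. Fabp5 was likewise highest in macrophage-like cells among CPI cells, with 1506 CPM (1437 to 1577) against 916.5 CPM in endothelial-like and 1127 CPM in DC-like cells. Lpl remained highest in fibroblast-like CPI cells, at 189 CPM against 91.1 CPM in macrophage-like ones. These intervals cover counting error only.

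**Figure D1:**
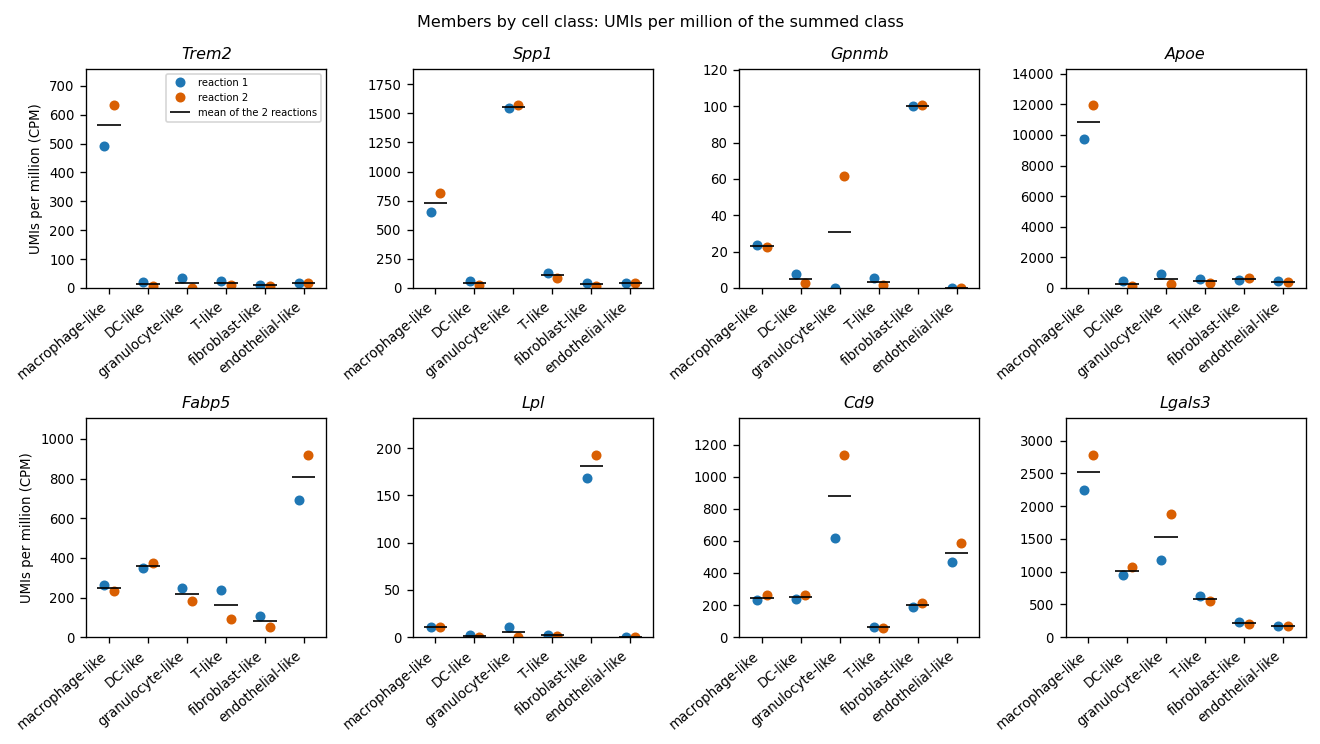
Level of each member in CPM (y axis, linear, own scale per gene) in the 6 named cell classes (x axis), where points are the 2 reactions and lines their mean. Trem2, Apoe, and Lgals3 are highest in macrophage-like cells, Spp1 and Cd9 in granulocyte-like cells, Gpnmb and Lpl in fibroblast-like cells, and Fabp5 in endothelial-like cells.

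Under the limit of 2500 genes, macrophage-like cells, 10885 in number, held most of the RNA of 5 members. They carried 92.9% and 95.5% of the Trem2 UMIs of all cells under that limit in reactions 1 and 2, 92.1% and 95.1% of Apoe, 82.4% and 89.3% of Spp1, 77.9% and 85.6% of Lgals3, and 60.7% and 70.3% of Cd9. For Fabp5 the share was 41.2% and 49.8%, for Gpnmb 34.3% and 43.3%, and for Lpl 19.3% and 23.4%. Without the limit, which adds many large unnamed cells, most RNA remained in macrophage-like cells for 2 members, Trem2 (71.7% and 80.4%) and Apoe (72.7% and 81.3%). The share was then 26.9% and 30.04% for Spp1, 15.9% and 18.5% for Lgals3, 12.2% and 13.4% for Cd9, and 3.99% and 3.22% for Fabp5. For Gpnmb it was 6.82% and 6.97%, whereas for Lpl it moved little, to 17.2% and 20.1%.

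The share of cells in which a gene is seen depends on depth, so shares were compared after each cell was thinned to 1000 UMIs. Thinning does not remove free RNA in droplets, which gives UMIs to cells that do not make a gene. No RNA background was estimated. Trem2 was then detected in 33.3% and 42.5% of macrophage-like cells and in 2.73% and 0.806% of T-like cells (62.8% and 76.7% against 3.31% and 1.18% without thinning, at median depths of 1782 to 3611 UMIs in the macrophage-like clusters and 1072 in the T-like one). Apoe was in 92.8% and 94.8% of macrophage-like but also in 41.6% and 23.4% of T-like cells. Lgals3 and Fabp5 were seen in 47.9% and 32.7%, and in 15.8% and 6.45%, of T-like cells. The mean share of macrophage-like cells with Fabp5, 15.7% ± 3.01, was thus barely above that of T-like cells, 11.1% ± 6.58, with treatments mixed. The macrophage-like cells were mostly isotype and the T-like cells mostly CPI. In CPI macrophage-like cells alone, the thinned share was 44.5% and 49.7%. Without thinning, at unequal depths, Fabp5 was in 58.3% of 552 CPI macrophage-like and 18.1% of 822 CPI T-like cells. Lpl was in 0.866% ± 0.0538 of all macrophage-like cells and in 0 of 724 T-like cells after thinning.

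Within the macrophage-like class, the members split over 4 clusters, each named by its leading gene. The Arg1-led cluster, also led by Hmox1, and the Ccl12-led cluster, also led by C1q genes, held most cells, a Cadm1-led cluster fewer, and a Lyz1-led cluster of 554 barcodes, also led by Gdf15, Ccl6, and Atp6v0d2, the fewest. C1qa, C1qb, and Ccl12 were among the leading genes of the Arg1-led cluster as well. The Lyz1-led cluster was still rich in macrophage markers, with 2814 and 3091 CPM of C1qb, but it is the least settled of the 4: at a finer clustering, or when clusters are named against all other cells pooled, it is monocyte-like. It held 464 of the 552 CPI macrophage-like cells, 16 of the 810 CPI + ABT-317 cells, and 6 of the cells of both isotype groups.

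Summed over treatments, Gpnmb, Fabp5, and Lpl were highest in the Lyz1-led cluster. Fabp5 stood there at 1494 and 2076 CPM, against 89.4 to 305 CPM in the other 3. Gpnmb gave 180.3 and 357 CPM there, against 3.2 to 36.0 CPM elsewhere. Lpl was at 95.4 and 102.9 CPM, against 5.23 to 21.6 CPM elsewhere, and for none of these genes did the reactions overlap. Trem2 and Spp1 instead peaked in the Arg1-led cluster, with 598 and 726 CPM of Trem2 and 906 and 1043 CPM of Spp1, against 411 and 608 CPM and 641 and 624 CPM in the Lyz1-led one, and the reactions of the 2 clusters overlapped for Trem2 but not for Spp1. Lgals3 was high in both, with 3306 and 3942 CPM in the Arg1-led and 3167 and 4460 CPM in the Lyz1-led cluster, and the 2 clusters also overlapped for Apoe and Cd9. The Ccl12-led cluster, richest in C1q RNA, was below the Arg1-led one for 7 members in both reactions, and Lpl was the exception at 9.66 and 11.8 CPM against 6.16 and 5.23 CPM. Treatments have very different shares of these clusters, and within CPI cells alone, both reactions summed, part of this order turned. Fabp5 (1710 CPM) and Gpnmb (236 CPM, 95% exact Poisson interval 206 to 269) were still highest in the 464 Lyz1-led cells, although Gpnmb in the 25 Cadm1-led cells (175 CPM, 83.8 to 321) lay within reach. Lpl, at 91.1 CPM (73.0 to 112) in Lyz1-led cells, was at 329.7 CPM (165 to 589.9) in 11 Ccl12-led and 139.8 CPM (60.4 to 276) in 25 Cadm1-led cells. Trem2 was higher in Lyz1-led (484 CPM, 441 to 530.2) than in 52 Arg1-led cells (321 CPM, 234 to 429.5).

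**Figure D2:**
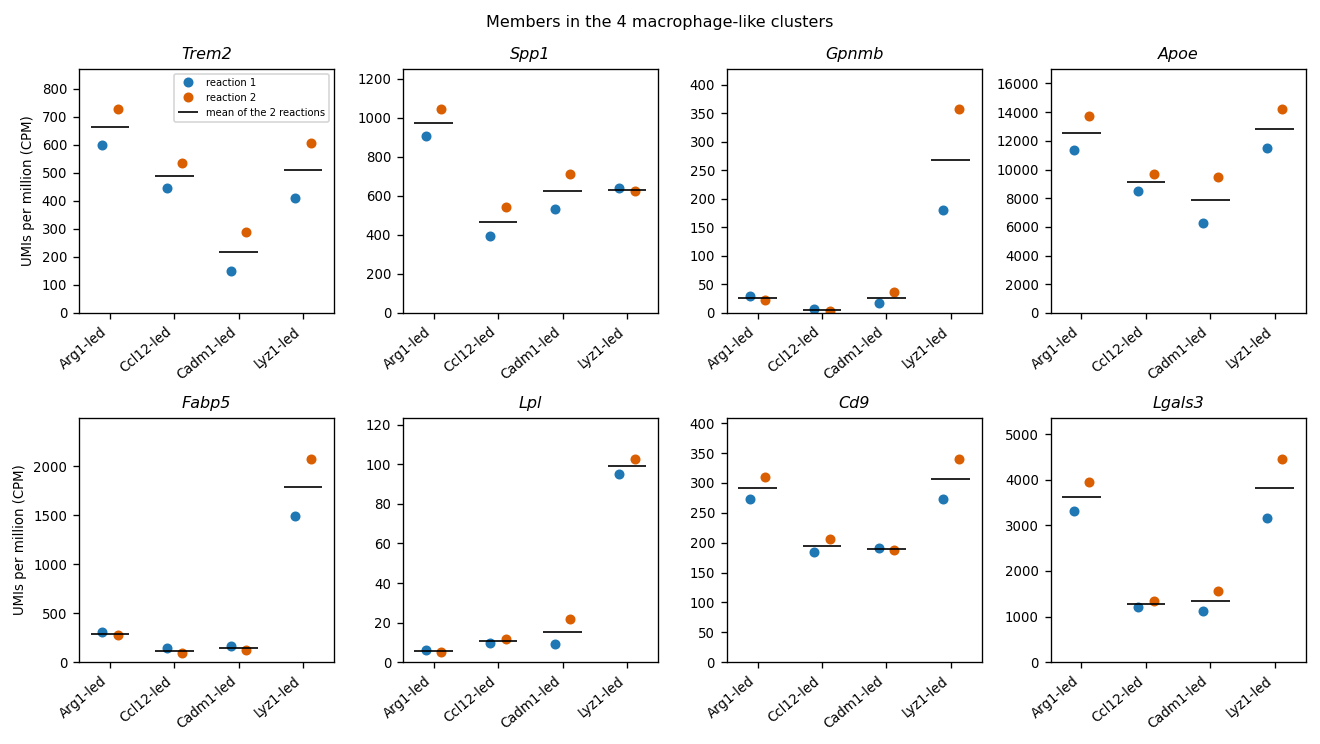
Level of each member in CPM (y axis, linear, own scale per gene) in the 4 macrophage-like clusters, each named by its leading gene (x axis), where points are the 2 reactions and lines their mean. Gpnmb, Fabp5, and Lpl stand far above the other clusters in the Lyz1-led cluster, which holds 464 of 552 CPI cells, and Trem2 and Spp1 are highest in the Arg1-led cluster, with all treatments summed.

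The first treatment comparison asked how CPI changed macrophage-like cells. With CPI, these cells held much more Gpnmb, Lpl, and Fabp5 RNA than with isotype antibodies, somewhat more Lgals3, and less Spp1 and Trem2. The receptor gene and the osteopontin gene therefore moved against the fatty acid handling genes Lpl and Fabp5. Of 8 members, 4 were higher (16.5% of all 9348 genes tested) and 2 lower (14.9% of all genes), while Apoe and Cd9 did not pass the test. All 8 passed the filter on low counts, and the lowest, Lpl, had at least 6 UMIs in every sum. The test is edgeR's quasi-likelihood test with the reaction as a block, and adjusted p values are over all genes tested.

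Gpnmb stood at 15.7 and 10.7 CPM with isotype and at 129.5 and 319.6 CPM with CPI in reactions 1 and 2. The log2 fold change was 4.00 (SE 0.27, edgeR adjusted p = 4.19e-13). The groups were far apart, but the size rests on the reaction, with 2.99 in reaction 1 alone and 4.90 in reaction 2 alone. Lpl went from 6.91 and 8.68 CPM to 81.5 and 103.9 CPM. Its log2 fold change was 3.53 (SE 0.26, edgeR adjusted p = 2.12e-12), and it was about equal in both reactions. Fabp5 went from 195 and 165 CPM to 1279 and 1812 CPM, with a log2 fold change of 3.08 (SE 0.11, edgeR adjusted p = 2.59e-19). Calls for these 3 genes held in all 13 alternatives of processing that could be tested. Few CPI cells remained in an alternative described below, in which the Lyz1-led cells were set apart.

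Lgals3 rose less, from 2141 and 2671 CPM to 3003 and 4541 CPM (log2 fold change 0.62, edgeR adjusted p = 5.28e-08), and its groups did not overlap. Spp1 fell from 605 and 767 CPM to 287 and 643 CPM, with a log2 fold change of -0.63 (edgeR adjusted p = 0.000358). Trem2 fell from 518 and 649.9 CPM to 345 and 582 CPM, with a log2 fold change of -0.38 (edgeR adjusted p = 0.00234). For both genes the groups overlapped across reactions, and the fall was larger in reaction 1 (-1.13 and -0.64) than in reaction 2 (-0.25 and -0.15). Without the reaction block, the calls for Lgals3, Spp1, and Trem2 were lost (edgeR adjusted p = 0.0803, 0.221, and 0.377), and DESeq2 did not call Spp1 (adjusted p = 0.252). Trem2 was also not called in cells with no collagen UMI (edgeR adjusted p = 0.0515), nor Lgals3 at the finer clustering (-0.062, edgeR adjusted p = 0.781). Apoe was at 10446 and 12493 CPM with isotype and 10876 and 13497 CPM with CPI (log2 fold change 0.07, edgeR adjusted p = 0.383), and Cd9 at 219 and 255 CPM against 252 and 324 CPM (0.25, edgeR adjusted p = 0.0533).

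The cells compared are not the same clusters: the Lyz1-led cluster held 464 of the 552 CPI cells, and the Arg1- and Ccl12-led clusters held 4088 and 3918 of the 8570 isotype cells. Within the Arg1-led cluster alone, with both reactions summed, Fabp5 stood at 956 CPM (95% exact Poisson interval 801 to 1132) in 52 CPI cells against 244 CPM (236 to 252) in 4088 isotype cells. Gpnmb gave 99.9 CPM (54.6 to 168) against 20.5 CPM (18.3 to 22.9), and Lpl, from 2 UMIs, 14.3 CPM (1.73 to 51.5) against 5.30 CPM (4.22 to 6.58). The other clusters, with few CPI cells, gave other pictures. In the Ccl12-led cluster (11 CPI cells), Lpl was at 329.7 CPM against 10.4 CPM, Fabp5 at 299.7 CPM (144 to 551) against 109 CPM, and Gpnmb at 0 CPM (up to 89.9) against 4.30 CPM. In the Cadm1-led cluster (25 CPI cells), Lpl was at 139.8 CPM against 10.2 CPM, Gpnmb at 175 CPM against 18.0 CPM, and Fabp5 at 122 CPM (49.2 to 252) against 158 CPM. Without the Lyz1-led cells, as when clusters were named against pooled cells, Gpnmb, Fabp5, and Lpl were still called, at 2.71, 1.58, and 3.29 on the log2 scale (2.30, 0.96, and 3.55 at the finer clustering, where these cells are also set apart), while Trem2 was at -1.26 and Apoe at -0.45. In both settings Cd9 also turned below its isotype level. With pooled naming, the CPI side rests on the 52 Arg1-led, 11 Ccl12-led, and 25 Cadm1-led cells. Their Lpl came from 2, 11, and 8 UMIs, in 3.85%, 27.3%, and 8% of those cells. Poisson intervals do not cover such a spread between cells.

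Markers of other cells moved with CPI. The summed 9 monocyte markers stood at 623 and 735 CPM in CPI against 178 and 158 CPM in isotype macrophage-like cells, with at most 1 of them at 0 in a sum. The 10 DC markers, which include Itgax and H2-Ab1 that macrophages share, gave 4336 and 4870 CPM against 2074 and 2578 CPM, and the 9 T cell markers gave 115 and 94.1 CPM against 25.6 and 27.8 CPM. Their part in the results was not tested. The 9 fibroblast markers gave 629 and 282 CPM against 362 and 165 CPM, compared with 80049 and 87650 CPM in fibroblast-like cells. In CPI macrophage-like cells with no UMI of Col1a1, Col1a2, or Col3a1, Lpl stood at 86.6 and 115.8 CPM and Gpnmb at 170.2 and 310.7 CPM. In all CPI macrophage-like cells they stood at 81.5 and 103.9 CPM and 129.5 and 319.6 CPM. Doublets of cells from the same treatment carry a single hashtag and are not seen, and the source of this RNA was not tested. CPI macrophage-like cells were also shallower, with medians of 1811 and 2003.5 UMIs against 3059 and 3628 for isotype. After thinning to 1000 UMIs, which left out 38 of 330 and 37 of 222 CPI cells, Gpnmb was detected in 7.19% and 12.4% of CPI and 1.45% and 1.25% of isotype cells. Fabp5 was detected in 44.5% and 49.7% against 15.5% and 11.3%, and Spp1 in at most 17.3% against 23.5% and 24.6%.

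**Figure D3:**
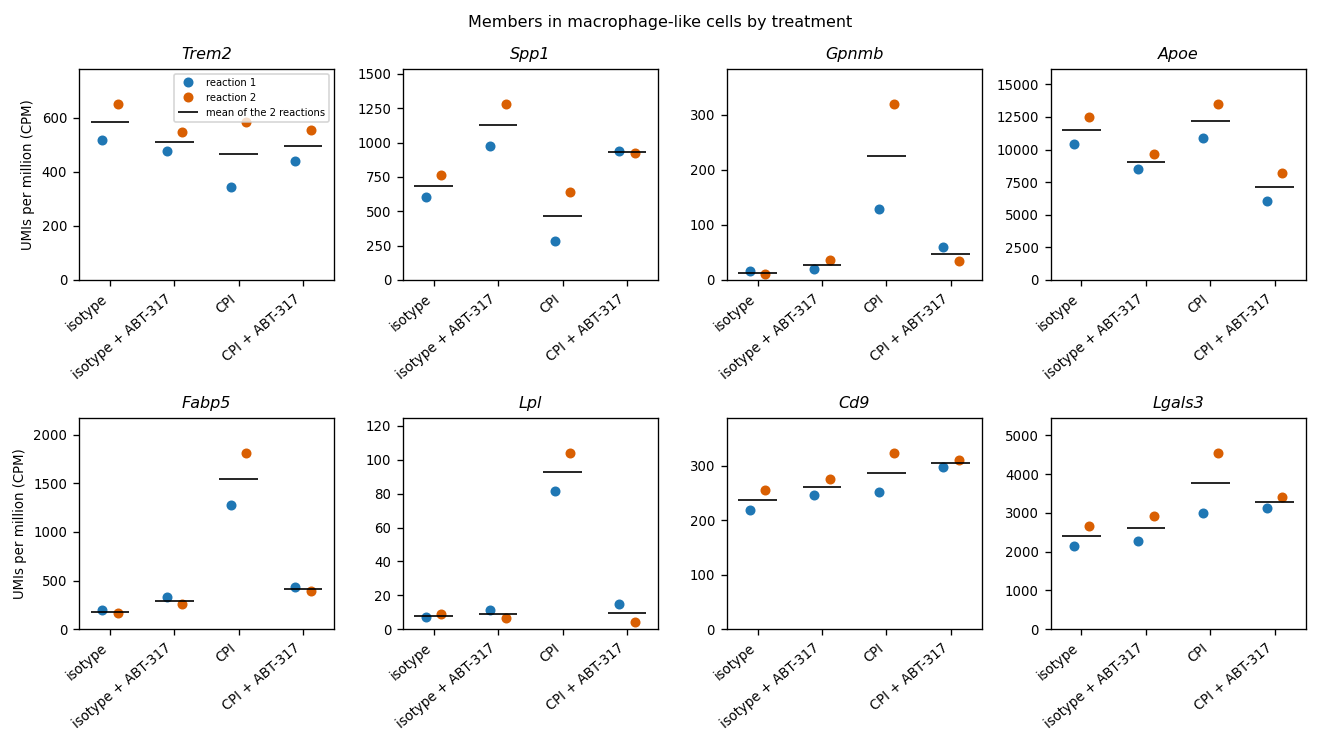
Level of each member in CPM (y axis, linear, own scale per gene) in macrophage-like cells of the 4 treatments (x axis), where points are the 2 reactions and lines their mean. Gpnmb, Fabp5, and Lpl are highest with CPI in both reactions and lower with CPI + ABT-317, where Gpnmb and Fabp5 are still above isotype, whereas Spp1 is lowest with CPI.

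The second comparison asked what ABT-317 after CPI changed. Gpnmb, Fabp5, and Lpl, the genes that had risen with CPI, were lower with CPI + ABT-317 than with CPI, and so was Apoe, which CPI had not changed past the threshold. Spp1 was higher. Of the members, 1 was higher (10.1% of all genes tested) and 4 lower (10.3% of all genes). Both comparisons use the same CPI sums, so their opposite signs are not independent of each other.

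Lpl stood at 14.5 and 4.38 CPM with CPI + ABT-317, next to 81.5 and 103.9 CPM with CPI and 6.91 and 8.68 CPM with isotype. The log2 fold change against CPI was -3.24 (SE 0.33, edgeR adjusted p = 5.35e-09), -2.43 in reaction 1 alone and -4.54 in reaction 2 alone, and was called in all 13 alternatives. Gpnmb was at 60.0 and 33.8 CPM, a log2 fold change of -2.16 (SE 0.29, edgeR adjusted p = 1.10e-06), with -1.05 and -3.23 in the reactions alone. Fabp5 was at 429 and 394 CPM, a log2 fold change of -1.87 (SE 0.12, edgeR adjusted p = 2.56e-13). In none of these genes did the 2 groups overlap, and all 3 remained at or above their isotype level in reaction 1.

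Apoe fell to 6018 and 8175 CPM, below every isotype and CPI sum (log2 fold change -0.76, SE 0.05, edgeR adjusted p = 4.99e-12). Spp1 rose to 938 and 927 CPM, above every isotype and CPI sum. Its log2 fold change was 1.10 (SE 0.14, edgeR adjusted p = 2.84e-07), with 1.77 in reaction 1 alone and 0.54 in reaction 2 alone, and the call was lost without the reaction block (edgeR adjusted p = 0.0563). Trem2 at 439 and 552 CPM, Cd9 at 298 and 311 CPM, and Lgals3 at 3133 and 3404 CPM did not pass the test (edgeR adjusted p = 0.324, 0.451, and 0.162).

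Here, too, the clusters differ, since the Arg1- and Ccl12-led clusters held 501 and 237 of the 810 CPI + ABT-317 cells. With the Lyz1-led cells outside the class at the finer clustering, Fabp5 did not differ past the threshold (log2 fold change 0.10, edgeR adjusted p = 0.848), nor did Gpnmb (-0.91, edgeR adjusted p = 0.268), whereas Lpl (-3.63), Apoe (-0.29), and Spp1 (0.82) did. With clusters named against pooled cells, which also sets the Lyz1-led cells apart, Fabp5 was still lower (-0.48, edgeR adjusted p = 0.0353), and Gpnmb (-1.17, edgeR adjusted p = 0.0813) and Apoe (-0.27, edgeR adjusted p = 0.0502) were not called. In both settings, Lgals3 changed sign and lay higher with CPI + ABT-317 than with CPI. At the finer clustering, 4 members were called higher and 2 lower (561 and 228 of 9497 genes). With pooled naming, 2 were called higher and 2 lower (439 and 226 of 9573 genes). At the finer clustering, Trem2 was higher with CPI + ABT-317 than with CPI (log2 fold change 1.02, edgeR adjusted p = 7.41e-06), and its fall with CPI was larger (-1.26). When the monocyte-like cells of that clustering were added back, the same number of members passed as in the first analysis, 5. Within the Arg1-led cluster, Fabp5 stood at 501 CPM (95% exact Poisson interval 470 to 533) with CPI + ABT-317 and 956 CPM (801 to 1132) with CPI, and Gpnmb at 54.8 CPM (45.0 to 66.1) and 99.9 CPM (54.6 to 168). In the Lyz1-led cluster, where only 16 CPI + ABT-317 cells lay, the levels went the other way, with Fabp5 at 3528 CPM (2894 to 4260) against 1710 CPM, Gpnmb at 980.0 CPM (661 to 1399) against 236 CPM, and Lpl at 261 CPM (113 to 515) against 91.1 CPM. Few of the 16 cells carried these UMIs: the 30 of Gpnmb came from 18.75% of them and the 8 of Lpl from 12.5%. In the Cadm1-led cluster (56 CPI + ABT-317 and 25 CPI cells), Fabp5 was at 119 CPM (68.1 to 193) against 122 CPM, Gpnmb, from 1 UMI, at 7.44 CPM (0.188 to 41.5) against 175 CPM, and Lpl at 0 CPM (up to 22.3) against 139.8 CPM. In the Ccl12-led cluster (237 and 11 cells), Lpl was at 6.94 CPM (2.79 to 14.3) against 329.7 CPM and Fabp5 at 178 CPM (153 to 206) against 299.7 CPM (144 to 551), while Gpnmb was at 7.93 CPM (3.42 to 15.6) against 0 CPM (up to 89.9). Apoe was also higher in the Lyz1-led cluster, at 23717 CPM with CPI + ABT-317 against 12477 CPM with CPI. Spp1 was there at 7938 CPM, with UMIs in 25% of the 16 cells, against 413 CPM. In the other clusters Apoe was lower and Spp1 higher with CPI + ABT-317. In Arg1-led cells, for example, Apoe was at 7614 against 10943 CPM and Spp1 at 1072 against 649 CPM. None of these within-cluster values was tested.

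Markers of other cells moved with this comparison as well. From CPI to CPI + ABT-317, the summed monocyte markers went from 623 and 735 CPM to 252 and 293 CPM, with at most 1 of 9 at 0 in a sum. The T cell markers went from 115 and 94.1 CPM to 32.2 and 24.4 CPM, and the fibroblast markers from 629 and 282 CPM to 314 and 131 CPM. The DC markers went from 4336 and 4870 CPM to 3349.8 and 4159 CPM, with 3 or 4 of 10 at 0 in a sum, and the endothelial markers from 13.1 and 19.6 CPM to 36.7 and 30.7 CPM, with 2 to 6 of 8 at 0. Their part in the results was not tested.

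The third comparison asked what ABT-317 changed without CPI. Differences were small: Spp1 and Fabp5 were higher and Apoe lower with isotype + ABT-317 than with isotype. That is 2 members higher (0.674% of all genes tested) and 1 lower (0.578% of all genes). Spp1 stood at 974 and 1281 CPM against 605 and 767 CPM, a log2 fold change of 0.67 (edgeR adjusted p = 0.000197), without overlap. Fabp5 was at 328 and 256 CPM against 195 and 165 CPM (0.67, edgeR adjusted p = 0.00244), and Apoe at 8507 and 9643 CPM against 10446 and 12493 CPM (-0.37, edgeR adjusted p = 4.90e-05), also without overlap. Gpnmb, at 19.0 and 36.9 CPM, was above both isotype sums but did not pass (0.98, SE 0.40, edgeR adjusted p = 0.393), and Trem2 (-0.22), Lpl (0.18), Cd9 (0.10), and Lgals3 (0.07) were not called either. Without the reaction block no member was called here (lowest edgeR adjusted p = 0.977), and only 3 of all genes were (345 at an unadjusted p under 0.05). DESeq2 did not call Spp1 (adjusted p = 0.410), and Fabp5 was not called without the gene limit or in cells with no collagen UMI (edgeR adjusted p = 0.158 and 0.112). Between isotype and isotype + ABT-317, the summed DC markers stood at 2074 and 2578 against 1593 and 1804 CPM, with up to 5 of 10 at 0 in a sum, and the monocyte markers at 178 and 158 against 138 and 134 CPM, with up to 4 of 9 at 0. The T cell markers stood at 25.6 and 27.8 against 20.6 and 9.50 CPM, and the fibroblast markers at 362 and 165 against 395 and 169.9 CPM. Their part in the results was not tested.

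A test of the difference asked whether ABT-317 acted otherwise after CPI than after isotype. It did for Gpnmb, Apoe, Fabp5, and Lpl, whose ABT-317 effects were more negative after CPI, 4 of 8 members (6.02% of all genes were lower in this test) with 0 in the other direction (7.66% of all genes). The difference of log2 fold changes was -3.14 for Gpnmb, -2.54 for Fabp5, -3.42 for Lpl, and -0.38 for Apoe (edgeR adjusted p = 6.99e-05, 5.27e-12, 0.000127, and 0.000622). In reactions 1 and 2 alone it was -1.29 and -4.98 for Gpnmb and -3.07 and -4.06 for Lpl. For Spp1 the difference was 0.43 (SE 0.17, edgeR adjusted p = 0.102), so its rise with ABT-317 after CPI and after isotype was not shown to differ. The difference for Apoe was lost in 5 of 13 alternatives and was 0.08 and 0.11 when the Lyz1-led cells were outside the class. In the same 2 settings, the difference for Fabp5 was -0.54 (edgeR adjusted p = 0.0826, so not called) and -1.13, that for Gpnmb -1.88 and -2.15, and that for Lpl -3.59 and -3.29. The calls were then no longer all on 1 side. At the finer clustering, 3 members were called higher and 2 lower (552 and 181 of 9497 genes). With pooled naming, 1 was called higher and 3 lower (445 and 149 of 9573 genes). The plot of log2 fold changes shows the 4 tests side by side.

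**Figure D4:**
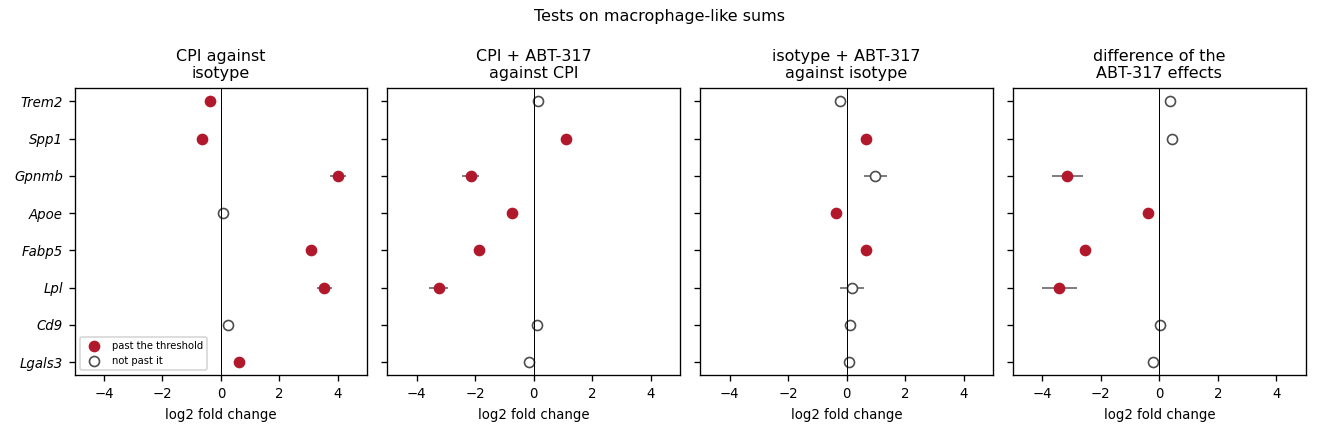
Log2 fold change (x axis) of each member (y axis) in macrophage-like cells for the 3 treatment comparisons and the difference of the ABT-317 effects, with bars of 1 standard error, and filled points where the edgeR adjusted p is under 0.05. Gpnmb, Fabp5, and Lpl are far to the right for CPI against isotype and far to the left for CPI + ABT-317 against CPI, and Spp1 takes the opposite side in both.

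Other genes of the same pathways were counted from lists. These counts come from the whole macrophage-like class, in which the Lyz1-led cluster held 464 of 552 CPI and 5 of 8570 isotype cells. The lists were not tested with those cells set apart, so treatment and cluster make-up cannot be told apart in them. Of all genes tested, 16.5% were higher and 14.9% lower with CPI than with isotype, 10.1% and 10.3% with CPI + ABT-317 against CPI, 0.674% and 0.578% with isotype + ABT-317 against isotype, and 7.66% and 6.02% in the test of the difference. In cholesterol and lipid handling, 14 of 19 genes tested were higher and 1 lower with CPI than with isotype, with a median log2 fold change of 1.33 against -0.01 over all genes tested. Pltp, the phospholipid transfer protein gene, stood at 540 and 496 CPM against 71.2 and 86.1 CPM (log2 fold change 2.73), and Fabp4, a fatty acid carrier gene, at 71.3 and 109.8 CPM against 13.1 and 9.25 CPM (2.96). Apoc1, an apolipoprotein gene beside Apoe, was at 16.0 and 9.80 CPM against 1.07 and 1.16 CPM (3.53). It passed the filter on low counts only by its CPI sums, as all other sums held 0 to 1.25 CPM. Its call is therefore no independent support for a rise. The gene that fell was Ch25h, which makes 25-hydroxycholesterol and is interferon inducible, with 5.82 and 0 CPM against 56.7 and 65.6 CPM. With CPI + ABT-317 against CPI, 3 of these genes were higher and 11 lower (median -0.82), and Ch25h was at 80.3 and 79.5 CPM. With isotype + ABT-317 against isotype, 3 were higher and 0 lower, and in the test of the difference 2 were higher and 8 lower.

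Of 15 lysosomal genes, 9 were higher and 3 lower with CPI (median log2 fold change 0.66). Atp6v0d2, a proton pump subunit gene and also a leading gene of the Lyz1-led cluster, stood at 65.5 and 78.4 CPM against 2.55 and 2.57 CPM (log2 fold change 4.77). Ctsd, which encodes the protease cathepsin D, was at 1783 and 2329 CPM against 574 and 551 CPM (1.84). Psap (1.49) and Lamp1 (1.31) rose as well. After CPI, ABT-317 went with 2 higher and 10 lower, and after isotype with 4 higher and 0 lower, which included Ctsk at 106 and 110.8 CPM against 7.78 and 15.6 CPM (3.22). The test of the difference gave 2 higher and 10 lower.

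Of 8 tested genes of TREM2 signaling, 3 were higher and 2 lower with CPI. Clec7a, the beta-glucan receptor gene that also signals through SYK, rose by 1.94, Syk by 0.91, and the adaptor gene Hcst by 0.59, while the phosphatase gene Inpp5d, a brake on the pathway, fell by 0.85 on the log2 scale. Plcg2, a gene of the list that is not a brake, was lower as well, at 52.4 and 45.1 CPM against 73.9 and 68.3 CPM. Tyrobp, the adaptor of TREM2, was at 2362 and 3415 CPM against 2656 and 3130 CPM and was not called. ABT-317 after CPI went with 1 higher and 3 lower, after isotype with none, and the test of the difference gave 1 higher and 2 lower. Of 7 osteopontin receptor genes, 3 were higher and 2 lower with CPI, led by Cd44 (1.54) and Itgb5 (-1.14), and 1 and 2 with CPI + ABT-317 against CPI. After isotype, ABT-317 went with 0 higher and 1 lower, Cd44 (-0.40), and the difference was 1 higher and 2 lower. Mitf, which encodes a lysosome and Gpnmb regulator known from melanocytes, osteoclasts, and macrophages, was the 1 of 3 MITF/TFE genes called with CPI, at 339 and 233 CPM against 130.0 and 114 CPM (1.22, edgeR adjusted p = 6.94e-11). It was lower with CPI + ABT-317 than with CPI (-0.79), not called after isotype (0.14), and lower in the test of the difference (-0.93).

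CD9 was the 1 member also read as surface protein, by an antibody in the same cells. Among 10000 antibody counts of macrophage-like cells, CD9 took 102.7 and 114 with isotype, 115 and 133 with isotype + ABT-317, 138 and 176 with CPI, and 100.3 and 103 with CPI + ABT-317. The highest of 9 isotype control antibodies took 30.2 to 34.1, so the signal was above background in every sum. On this scale, CPI had the highest level in both reactions and did not overlap with any other group, though it was not tested. In CD9 counts per cell, CPI was also highest within each reaction, at 94.2 and 120.2, but it overlapped with isotype + ABT-317, at 81.3 and 94.9. On that scale isotype was lowest, at 76.7 and 83.0, below CPI + ABT-317 at 85.7 and 93.4. Cd9 RNA, in contrast, was at 252 and 324 CPM with CPI and at 298 and 311 CPM with CPI + ABT-317, which overlap. By cluster, the antibody was highest in the Lyz1-led cells, at 142 and 183 of 10000, against 96.0 to 116 in the other 3 clusters.

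**Figure D5:**
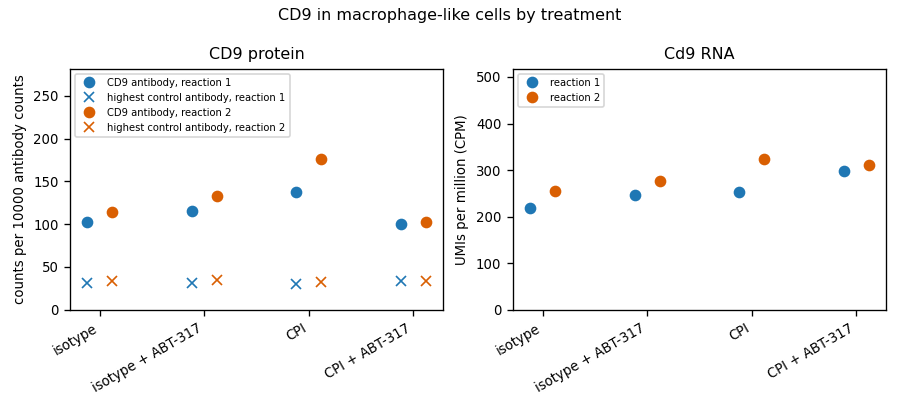
CD9 antibody counts per 10000 antibody counts (y axis of the left panel) and Cd9 RNA in CPM (y axis of the right panel) in macrophage-like cells of the 4 treatments (x axis), where circles are the 2 reactions and crosses the highest of 9 isotype control antibodies. As a share of antibody counts, CD9 is highest with CPI in both reactions and lowest with CPI + ABT-317, whereas the RNA of these 2 groups overlaps. In counts per cell, isotype is lowest instead.

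Likeness was described over the 12 sums of 6 classes in 2 reactions, as Pearson's r of log2(CPM + 1) among 12910 genes. Trem2 was most like C3ar1 (0.95), Apobec1 (0.94), and Tnfsf13 (0.93), and Apoe was most like Tfec (0.93), Trem2 itself (0.91), which is the only member among the neighbors named here, and Creg2 (0.91). Lgals3 was most like Lrrc25 (0.97), Clec12a (0.97), and Efhd2 (0.97), and Spp1 was most like Cited2 (0.98), F13a1 (0.96), and Bnip3 (0.96). For the members highest outside macrophages, the neighbors were Ctsk (0.98), Steap3 (0.96), and Creb3l1 (0.96) for Lpl, and Slc41a3 (0.91), Ptgr1 (0.90), and Zfp768 (0.87) for Gpnmb. Cd9 was most like Zfp608 (0.96), Mrpl54 (0.90), and Cdc42ep4 (0.89), and genes most like Fabp5 included Rassf3 (0.90) and Zc3h12c (0.90). The sums share libraries and classes differ in depth, so these values only describe.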

How the data were processed

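The genes and lists were chosen with earlier results of these data known. Raw UMI counts per gene and antibody, made by the authors with a Chromium 5′ v2 kit, were used as deposited in both MC38 reactions. Per the labels, Cell Ranger 3.1.0 and GRCm38/mm10 were used, whereas the matrix header names cellranger 8.0.1, and 31961 of 33696 gene IDs matched GENCODE on GRCm38. Lymph node reactions were not used here. Barcodes with at least 200 and under 2500 genes and under 10% mitochondrial UMIs were kept. Hashtags were called above their background, and a barcode had to have 1 hashtag to carry a treatment.

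Cells were clustered with leidenalg 0.10.2 (Python 3.11.15) at resolution 0.5 on 50 components of all genes except the 8 members. A class name needed at least 3 markers 1.5 times above the mean of the other clusters, with 1% or more of its cells holding each, and a log2 ratio averaging 0.4 over its markers. Clusters with over 50% of barcodes with several hashtags stayed unnamed. UMIs of macrophage-like cells were summed per treatment and reaction and tested with edgeR 4.0.16 (R 4.3.3) with the reaction as a block, at an adjusted p of 0.05 (Benjamini-Hochberg over all genes tested). The block was used because each reaction held all treatments, and sums of the same reaction deviated together (r = 0.16 to 0.51 over 6 pairs). DESeq2 1.42.0 was an alternative. For shares of cells, each cell was thinned to 1000 UMIs. All 8 members were named, with up to 4 genes of each of 5 pathway lists per comparison, from those with the largest changes among the called ones, and for likeness the 3 genes of highest r, of which 1 is not reported here. Tyrobp and Plcg2 were added after their values were seen. Tested on simulated data for CPI against isotype (9177 genes), edgeR recovered 62% of genes changed 2-fold and 87% of those changed 4-fold, with 3 false calls. The simulation gave all genes the same spread and held no reaction effect, so it does not measure the error in these data. Intervals are 95% exact Poisson intervals and cover counting error only.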

Additional observations from a re-analysis of the deposited data

Results flagged for a closer look

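The effect of ABT-317 in the sums of macrophage-like cells differed between CPI and isotype for 4 of 8 members, by edgeR's test of the difference itself. All 4 were lower in that test, in which 6.02% of all genes were lower and 7.66% higher. The difference of the log2 fold changes was -3.42 for Lpl, which was -3.24 after CPI and 0.18 after isotype. For Gpnmb it was -3.14, from -2.16 and 0.98, and for Fabp5 -2.54, from -1.87 and 0.67. For Apoe it was -0.38, from -0.76 and -0.37, so that gene was lower with ABT-317 in both settings. The CPI cells lay mostly in the Lyz1-led cluster and the others in the Arg1- and Ccl12-led clusters. With the Lyz1-led cells outside the class, at resolution 1.0 and with pooled naming, the difference was 0.082 and 0.11 for Apoe and -0.54 (edgeR adjusted p = 0.0826) and -1.13 for Fabp5, while Gpnmb (-1.88 and -2.15) and Lpl (-3.59 and -3.29) were still called. In these 2 settings members were also called in the other direction. At resolution 1.0, 3 were called higher and 2 lower (552 and 181 of 9497 genes). With pooled naming, 1 was called higher and 3 lower (445 and 149 of 9573 genes). The call for Apoe was lost in 5 of 13 alternatives.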

How the results depend on the processing

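Of 414 values of members under 13 alternatives, 349 kept direction and side of the threshold, 19 lost the call, 20 gained one, and 26 changed sign. Settings that name clusters against pooled cells, join macrophage- and monocyte-like cells, call hashtags without background adjustment, use 2000 variable genes, or keep cells with no collagen UMI were chosen after seeing the data. Calls of Gpnmb, Fabp5, and Lpl for CPI against isotype, of Lpl for CPI + ABT-317 against CPI, and of Gpnmb and Lpl for the difference of ABT-317 effects held in all 13. With pooled naming, few CPI cells remained, and Lpl was seen in few of them.

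Without the replicate block, 3 members were called for CPI against isotype (6 with it), 0 for isotype + ABT-317 against isotype (3 with it, and 5 with no filter on low counts), and all genes called went from 2930 to 1879, 1909 to 1033, 117 to 3, and 1279 to 374 in the 4 tests. DESeq2 called 1867, 1249, 57, and 745, and thinned cells gave 1450, 827, 57, and 535. At resolution 1.0, 987, 789, and 733 genes were called for CPI against isotype, CPI + ABT-317 against CPI, and the difference, and with pooled naming 1064, 665, and 594. For isotype + ABT-317 against isotype, 235 were called with no filter, 53 with no gene limit, and 73 without collagen cells, which gave 808 for the difference. Members highest in macrophage-like cells were 1 at resolution 1.0 and 1 with pooled naming, 4 with no gene limit, where no cluster was granulocyte-like, 2 in thinned cells, and 3 with 2000 variable genes or without either reaction. The shares of member RNA without the gene limit were also added after seeing the data.

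Log2 values that changed sign follow. For CPI against isotype, Apoe was -0.00025 with upper-quartile scaling, -0.046 with no filter, -0.14 with no gene limit, -0.46 at resolution 1.0, and -0.45 with pooled naming. Cd9 was -1.05 and -0.24 in the last 2, and Lgals3 -0.062 at resolution 1.0. For CPI + ABT-317 against CPI, Fabp5 was 0.10 at resolution 1.0, and Lgals3 0.50 there and 0.11 with pooled naming. For isotype + ABT-317 against isotype, Lpl was -0.090 with no gene limit, -0.052 with a hashtag lead of 1, -0.042 at resolution 1.0, and -0.14 with pooled naming. Cd9 was -0.044 thinned, and Lgals3 -0.0088 with no filter, -0.027 with the hashtag lead, and -0.11 thinned. For the difference, Apoe was 0.082 at resolution 1.0 and 0.11 with pooled naming, Lgals3 0.44 and 0.044, and Cd9 -0.017 with no gene limit, -0.082 without hashtag adjustment, and -0.10 without collagen cells. The cause was not tested.

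With 1 reaction left out there are no residual degrees of freedom, so values have no test. For CPI + ABT-317 against CPI these ran from -0.060 to 0.41 for Trem2, -0.041 to 0.30 for Cd9, and -0.40 to 0.12 for Lgals3. Lpl ran from -0.48 to 0.64 for isotype + ABT-317 against isotype. The difference ran from -0.17 to 1.12 for Spp1, -0.13 to 0.17 for Cd9, and -0.50 to 0.066 for Lgals3.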

Other observations

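Without the limit of 2500 genes, a large cluster that could not be named (4263 and 3916 cells) showed how members behave in cells that are not macrophage-like. Lgals3 was at 1159 and 1263 CPM, Fabp5 at 655 and 686 CPM, and Spp1 at 144 and 163 CPM, while Trem2 was at 1.82 and 1.08 CPM. Another unnamed cluster (3861 and 3277 cells) held more Fabp5, at 947 and 1062 CPM. That is above the endothelial-like mean of 700 CPM in this setting, the highest of the named classes.

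After thinning to 1000 UMIs, a macrophage-like cell held 2.77 and 3.17 of the 8 members with CPI and 2.58 and 2.71 with isotype, and 8.90% and 13.5% of CPI cells against 4.54% and 6.16% of isotype cells held 5 or more. The shares were 7.01% and 9.12% with CPI + ABT-317 and 8.22% and 5.93% with isotype + ABT-317, so the CPI range overlapped that of CPI + ABT-317. No test was made.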
